A study of Homo sapiens with 6 samples.

Results

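The genes described here were CIITA, CD74 and the major histocompatibility complex (MHC) class II genes HLA-DMA, HLA-DMB, HLA-DRA, HLA-DRB1, HLA-DPA1, HLA-DPB1, HLA-DQA1 and HLA-DQB1. They were taken by symbol from the deposited count tables, and these 10 genes were 10 of 58395 genes in the tables, each with a single row. RNA had been sequenced from THP-1, a human line derived from an acute monocytic leukaemia, in 3 libraries after 16 h with 1 µM monensin and in 3 libraries from cells with no exposure. Monensin is a polyether ionophore that exchanges sodium ions for protons across membranes and is known to disturb the Golgi apparatus and acidic compartments. The label of the untreated cells names no vehicle, and an effect of a vehicle and an effect of monensin cannot be told apart. Both groups were the same line in the same medium, and the labels do not say that replicates were separate cultures, so p-values measure the spread between these libraries, which may be technical.

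MHC class II molecules are heterodimers of an alpha and a beta chain that display peptides from endosomes and lysosomes to CD4 T cells. Their genes are switched on by CIITA, a co-activator that does not bind DNA itself but docks on a complex of RFX, CREB-family and NF-Y proteins at the X and Y boxes of class II promoters. New dimers assemble in the endoplasmic reticulum with the invariant chain CD74, which is cut down by cathepsins in endosomes, and HLA-DM then exchanges its last fragment for peptide. Monocytes express class II at rest, and interferon gamma raises it through IRF1 and CIITA.

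Gene counts per library came to between 22975888 and 25710513, and counts are given below also as CPM, read counts scaled to a common library size after TMM normalization. Of 18 monocyte and THP-1 marker genes all were tested, and their summed level was 5066 to 5639 CPM in monensin libraries and 4891 to 5205 CPM in untreated libraries. Most of that sum was AZU1, ELANE and CTSG, and the markers moved both ways, with 9 raised, 5 lowered and 4 not called. By the same rule, given below, 34.1% of all tested genes were raised and 33.7% lowered. LYZ, lysozyme, was at 292 ± 24.2 CPM with monensin and 791 ± 14.3 CPM untreated, and ITGAX, an integrin chain, at 118 ± 6.65 CPM with monensin and 37.0 ± 4.63 CPM untreated (SD, n = 3 each). Markers of other class II-bearing cells were looked at too. The sum over 8 B cell markers was 25.9 to 28.3 CPM in monensin libraries and 35.5 to 40.2 CPM in untreated libraries, most of it BANK1, while BLK was at 0 in every library and MS4A1 at 0 in every monensin library. The sum over 10 dendritic cell markers was 162 to 165 CPM in monensin libraries and 101 to 117 CPM in untreated libraries. Nearly all of it came from CD209, FLT3 and ZBTB46, with XCR1 at 0 in every library. These markers did not move together: of 4 tested, 2 were raised, 1 was lowered and 1 was not called. On average CD209 was at 108 CPM with monensin and 48.1 CPM untreated. FLT3, the lowered one, was at 38.4 CPM with monensin and 48.8 CPM untreated. The sum over 6 T cell markers was 0.520 to 0.779 CPM in monensin libraries and 2.87 to 3.43 CPM in untreated libraries. Most of that sum was IL7R alone, at 0.591 CPM with monensin and 3.04 CPM untreated on average. The part of the dendritic cell markers in the class II values was not tested. In RNA from a whole culture, more cells with class II transcripts and more class II RNA per cell cannot be told apart.

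Transcripts of the class II pathway were more abundant after monensin: 6 of the 7 members with enough reads to test rose and 0 fell. A gene was called raised or lowered at an adjusted p under 0.05 in edgeR's quasi-likelihood test with Benjamini-Hochberg adjustment over 16542 genes. Across all tested genes 34.1% were raised and 33.7% lowered by the same rule, so a call on its own was common in these libraries. The 6 raised members were CIITA, HLA-DMA, CD74, HLA-DRA, HLA-DRB1 and HLA-DQB1, with log2 fold changes between 0.36 and 1.54. The median log2 fold change of the 7 tested members was 0.59, against 0.02 for all tested genes. In 6 of the 7 the 3 monensin libraries lay above all 3 untreated libraries in CPM, as they did in 35.9% of all tested genes. Summed over the 10 members, the level was 444, 453 and 498 CPM in monensin libraries, against 291, 291 and 293 CPM in untreated libraries.

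**Figure D1:**
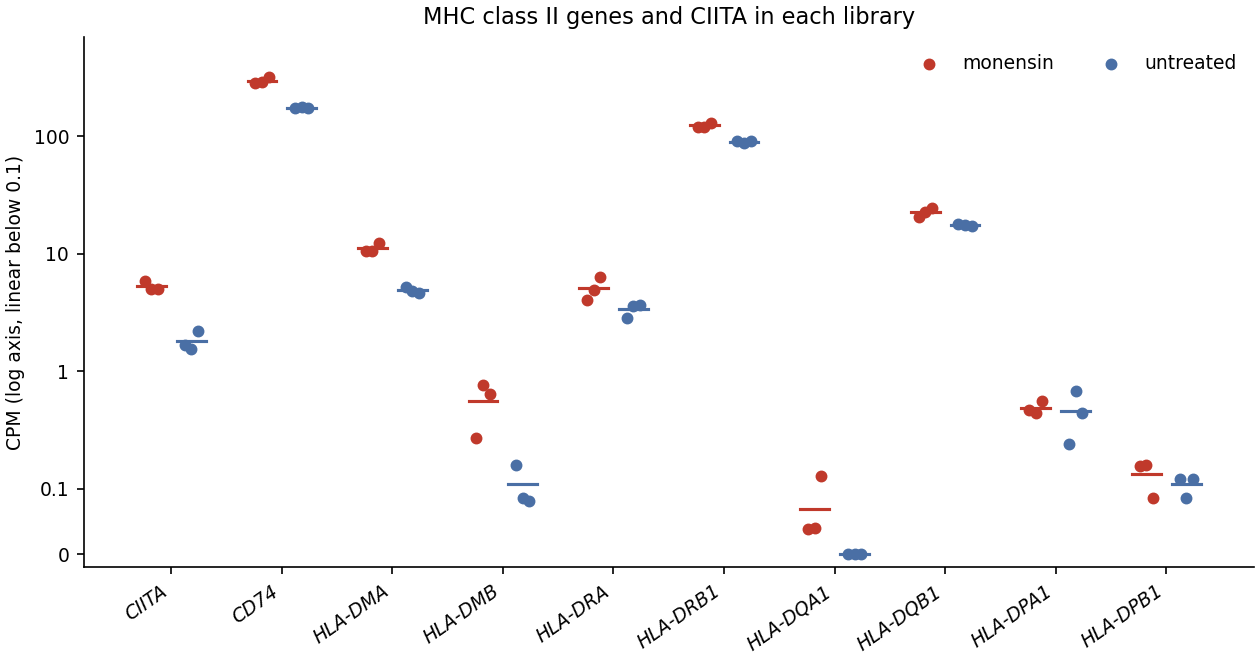
CPM of the 10 members in each library, on a log axis that is linear below 0.1, with each point a library and each bar the mean of 3 libraries. CIITA, CD74, HLA-DMA, HLA-DRA, HLA-DRB1 and HLA-DQB1 sit higher in all monensin libraries than in any untreated library, and the points of HLA-DPA1 overlap.

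Because class II promoters share a known arrangement of boxes, the promoter windows of the members were read from RefSeq (GRCh38.p14), from 250 bases before to 50 bases after the transcription start, a window of 300 bases. Windows were matched for 8 of the 10 members, all but HLA-DRA and CIITA. The core letters searched on both strands were AGNNACNGA for the X1 box, ATTGG for the Y box, TGACG for the X2 box and CACGTG for an E box (the kind of site TFEB binds). Among the 35114 windows of the whole table these occurred in 15.3%, 34.6%, 24.55% and 7.26%. By member, an X1 core was found in 6 of 8, a Y core in 7, an X2 core in 4 and an E box in 0. Windows with an X1 core followed on the same strand by a Y core 15 to 35 bases later were far less frequent, at 97 windows or 0.276%. Of the 8 members, 4 had this pair: HLA-DMA, HLA-DRB1, HLA-DQA1 and HLA-DQB1. The stretches that carry it are shown because this spacing is the class II signature, 5′ to 3′ on the strand of the gene, with the X1 and Y cores in capitals. They lie at chr6:32953169-32953213 on the minus strand for HLA-DMA, at chr6:32589887-32589930 on the minus strand for HLA-DRB1, at chr6:32637301-32637345 on the plus strand for HLA-DQA1 and at chr6:32666738-32666781 on the minus strand for HLA-DQB1. The last line is HLA-DRB5, a class II beta gene outside the 10 members, at chr6:32530370-32530413 on the minus strand.
HLA-DMA: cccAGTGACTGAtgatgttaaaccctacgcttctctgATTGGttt
HLA-DRB1: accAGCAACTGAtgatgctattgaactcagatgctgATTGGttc
HLA-DQA1: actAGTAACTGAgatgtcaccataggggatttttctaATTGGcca
HLA-DQB1: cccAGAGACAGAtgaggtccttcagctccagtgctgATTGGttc
HLA-DRB5: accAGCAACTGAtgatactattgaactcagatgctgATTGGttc

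The gap between the end of the X1 core and the start of the Y core was 25 bases in HLA-DMA and HLA-DQA1 and 24 bases in HLA-DRB1 and HLA-DQB1. The X1 core began at 113 bases before the start in HLA-DMA, 79 in HLA-DRB1, 102 in HLA-DQA1 and 121 in HLA-DQB1. Carrying the pair did not go with one level of RNA: HLA-DRB1 was among the most abundant members and HLA-DQA1 was at or near 0. The other members with a window had only parts of it. CD74 is shown because it was the most counted member and its window, chr5:150412861-150413160 on the minus strand, held a Y core, which reads CCAAT here because it lies on the opposite strand, and no X1 core.
CD74: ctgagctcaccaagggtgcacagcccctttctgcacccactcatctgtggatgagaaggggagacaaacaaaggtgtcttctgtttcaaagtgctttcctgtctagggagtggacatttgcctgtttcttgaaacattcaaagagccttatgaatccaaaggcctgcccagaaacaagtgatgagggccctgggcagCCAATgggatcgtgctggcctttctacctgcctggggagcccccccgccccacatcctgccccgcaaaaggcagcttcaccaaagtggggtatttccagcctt
HLA-DMB is shown because its window, chr6:32940979-32941278 on the minus strand, held 3 X1 cores and 1 Y core, in capitals, with the Y core on the other strand and overlapping an X1 core, so that no pair was called.
HLA-DMB: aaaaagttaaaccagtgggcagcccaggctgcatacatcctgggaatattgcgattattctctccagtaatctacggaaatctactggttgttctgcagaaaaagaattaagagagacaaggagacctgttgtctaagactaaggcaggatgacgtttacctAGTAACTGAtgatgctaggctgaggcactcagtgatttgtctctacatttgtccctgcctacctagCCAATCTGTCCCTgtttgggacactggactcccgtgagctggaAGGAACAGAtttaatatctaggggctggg
HLA-DPB1 had 2 Y cores and no X1 core, and HLA-DPA1 had no Y core in its 2 windows. A match of letters is a description only, and a window without a match says nothing about whether a factor binds. The letters are those of the reference genome, and the promoters of this line were not read.

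CIITA (ENSG00000179583, chr16:10866222-10943021, plus strand), the master co-activator, changed most among the tested members. Its counts were 149, 126 and 116 in the monensin libraries, against 42, 36 and 54 in the untreated libraries. The lowest monensin library was above the highest untreated library. The level was 5.27 ± 0.463 CPM with monensin and 1.80 ± 0.337 CPM untreated (mean ± SD, n = 3 each), with a log2 fold change of 1.54 (standard error 0.16, adjusted p = 3.16e-07), or 2.91-fold. That was larger than the change of 96.3% of all tested genes. The authors' deposited table of 2410 regulated genes, which lists log2 fold changes of at least 1.00 in size and no errors, gives CIITA at 1.53. CIITA shares exons with DEXI on the opposite strand, which had 811, 831 and 792 reads in monensin libraries and 833, 636 and 698 in untreated libraries. The library kit marked strand, but whether the counting used it is not stated, and reads of such overlapping genes are uncertain. Of the 75-base windows of CIITA transcripts, 21.1% also occur in transcripts of other genes. The largest part, 10.8%, is shared with AC133065.3, a same-strand gene with overlapping exons that had 0 reads in every library. What the shared windows did to the counts of CIITA was not tested.

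CD74 (ENSG00000019582, chr5:150401637-150412929, minus strand), the invariant chain that guides class II to endosomes, had the most reads of the 10. It had 7235, 7230 and 7424 reads in the monensin libraries, against 4321, 4092 and 4312 in the untreated libraries. The groups did not overlap. Its level was 296 ± 19.1 CPM with monensin and 174 ± 1.11 CPM untreated (SD, n = 3 each), with a log2 fold change of 0.76 (standard error 0.05, adjusted p = 1.09e-09), or 1.70-fold. With trends of counts with GC content and length removed, the log2 fold change was 0.47.

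HLA-DM, the peptide editor, is encoded by HLA-DMA (alpha) and HLA-DMB (beta). HLA-DMA (ENSG00000204257, chr6:32948613-32969094, minus strand) had 271, 264 and 290 reads with monensin, against 129, 112 and 115 untreated. Every monensin library was above every untreated library, and the log2 fold change was 1.19 (standard error 0.10, adjusted p = 3.98e-08), or 2.29-fold, at 11.2 ± 1.08 CPM with monensin and 4.88 ± 0.267 CPM untreated (SD, n = 3 each). It is listed in the authors' deposited table at a log2 fold change of 1.18. Part of the HLA-DMA gene model lies across BRD2, on the opposite strand, which had 9791, 9744 and 9425 reads with monensin and 9417, 8982 and 9867 untreated. HLA-DMB (ENSG00000242574, chr6:32934629-32941070, minus strand) had 7, 19 and 15 reads with monensin, against 4, 2 and 2 untreated. It was under the filter on low counts and so not among the 7 tested members. Over the groups that was 41 reads with monensin and 8 untreated, a scaled ratio of 5.05 with an exact counting interval of 2.34 to 12.5 at 95%, which covers counting error only. Fitted without the filter, its log2 fold change was 2.27 (adjusted p = 4.36e-05) in edgeR's quasi-likelihood test and 2.32 (adjusted p = 0.00937) in DESeq2. The authors' deposited table gives HLA-DMB at 2.33. In all, 3 members were in that table, HLA-DMB, CIITA and HLA-DMA, which lists 2.89% of all genes as raised.

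HLA-DR, the most abundant class II molecule of monocytes, is a dimer of HLA-DRA and a DR beta chain, here HLA-DRB1. HLA-DRB1 (ENSG00000196126, chr6:32578769-32589848, minus strand) had 3076, 2995 and 3041 reads with monensin, against 2245, 2035 and 2232 untreated. The groups did not overlap, and its level was 123 ± 6.04 CPM with monensin and 89.2 ± 1.68 CPM untreated (SD, n = 3 each). The log2 fold change was 0.47 (standard error 0.05, adjusted p = 3.34e-07), or 1.38-fold, and 0.14 (adjusted p = 0.00436) with trends with GC content and length removed. HLA-DRA (ENSG00000204287, chr6:32439842-32445046, plus strand) had 103, 122 and 149 reads with monensin, against 71, 84 and 91 untreated. All 3 monensin libraries were above the highest untreated library, monensin replicate 1 by the least. Its log2 fold change was 0.59 (standard error 0.17, adjusted p = 0.00587), at 5.09 ± 1.20 CPM with monensin and 3.38 ± 0.461 CPM untreated (SD, n = 3 each).

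HLA-DQ is encoded by HLA-DQA1 (alpha) and HLA-DQB1 (beta). HLA-DQB1 (ENSG00000179344, chr6:32659467-32668383, minus strand) had 529, 567 and 567 reads with monensin, against 446, 407 and 422 untreated. No monensin library overlapped the untreated libraries, and the level was 22.5 ± 1.84 CPM with monensin and 17.5 ± 0.405 CPM untreated (SD, n = 3 each). Its log2 fold change was 0.36 (standard error 0.07, adjusted p = 0.000289), or 1.29-fold, the smallest of the 6 called changes, though HLA-DRB1 was lower once trends with GC content and length were removed. HLA-DQA1 (ENSG00000196735, chr6:32628179-32647062, plus strand) had 1, 1 and 3 reads with monensin and 0 in each untreated library. It was under the filter and not among the tested members. The exact counting interval of its ratio, from 5 reads with monensin and 0 untreated, began at 0.903, so a difference was not detectable at this depth, and without the filter its adjusted p was 0.0913 in edgeR's quasi-likelihood test.

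HLA-DP is encoded by HLA-DPA1 (alpha) and HLA-DPB1 (beta), which overlap on opposite strands. HLA-DPA1 (ENSG00000231389, chr6:33064569-33080775, minus strand) had 12, 11 and 13 reads with monensin, against 6, 16 and 11 untreated. The groups overlapped, and the log2 fold change of 0.10 (standard error 0.37, adjusted p = 0.818) was not called, and it was -0.21 without untreated replicate 1 and 0.49 without untreated replicate 2. HLA-DPB1 (ENSG00000223865, chr6:33075926-33087201, plus strand) had 4, 4 and 2 reads with monensin, against 3, 2 and 3 untreated, and was not tested. Its summed ratio was 1.23, with an exact counting interval of 0.438 to 3.59 at 95%. For HLA-DPA1 the summed counts of 36 with monensin and 33 untreated gave a scaled ratio of 1.08, with an exact counting interval of 0.652 to 1.78. Its upper end lay below the 2.29-fold of HLA-DMA and the 2.91-fold of CIITA, while changes of the size of CD74, HLA-DRB1 and HLA-DQB1 lay inside it. The interval covers counting error only and leaves out the spread between libraries, such as 6, 16 and 11 reads untreated. It therefore does not exclude a larger change of HLA-DPA1.

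**Figure D2:**
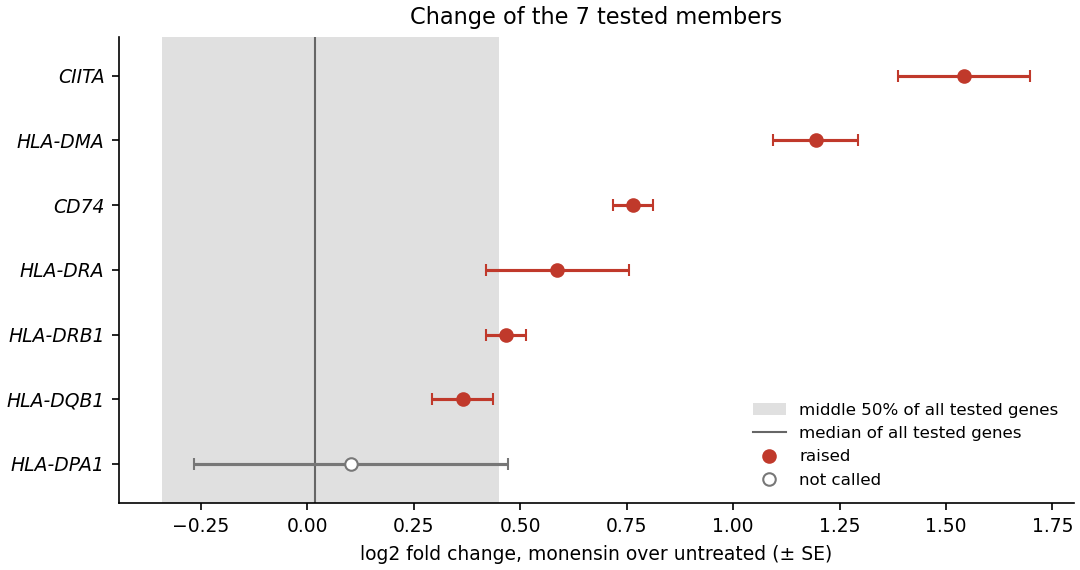
Log2 fold change of monensin over untreated for the 7 tested members, with bars of ± SE, beside the median and the middle 50% of all tested genes. CIITA at 1.54 and HLA-DMA at 1.19 lie farthest out, and the bar of HLA-DPA1 at 0.10 spans 0.

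Set per length, the members covered a wide range of levels. Levels are given as RPKM, CPM divided by the length in kilobases of the union of a gene's exons, and are compared only by whether the 3 libraries' ranges overlap. With monensin the order was HLA-DRB1 at 100.3 ± 4.91 RPKM, CD74 at 93.1 ± 6.01, HLA-DQB1 at 4.59 ± 0.376, HLA-DMA at 4.41 ± 0.425, HLA-DRA at 3.98 ± 0.937 and CIITA at 0.254 ± 0.0223 (SD, n = 3). The ranges of HLA-DRB1 and CD74, of HLA-DQB1 and HLA-DMA, and of HLA-DMA and HLA-DRA overlapped in the monensin libraries. In untreated libraries the order was HLA-DRB1 at 72.6 ± 1.36 RPKM, CD74 at 54.8 ± 0.349, HLA-DQB1 at 3.56 ± 0.0826, HLA-DRA at 2.64 ± 0.360, HLA-DMA at 1.92 ± 0.106 and CIITA at 0.0869 ± 0.0162 (SD, n = 3). Among these neighbours none overlapped, and CIITA overlapped the next gene down, HLA-DPA1. Several of these orders depended on the length used. With the longest transcript in place of the exon union, CD74 stood at 1.71 times HLA-DRB1 with monensin and 1.39 times untreated. HLA-DMA then stood at 6.44 RPKM with monensin, above HLA-DQB1 at 4.85, and at 2.81 RPKM untreated, where its libraries overlapped those of HLA-DRA at 2.64. The remaining members, HLA-DMB, HLA-DPA1, HLA-DPB1 and HLA-DQA1, were at or below 0.120 RPKM in monensin libraries and 0.0795 RPKM in untreated libraries.

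The alpha and beta chains of a dimer were far from equal in counts. The ratio of HLA-DRA to HLA-DRB1 per length was 0.0394 in monensin libraries and 0.0364 in untreated libraries. Many, though not all, HLA genes are highly polymorphic. Whether the alleles of this line differ from the reference in a way that lowers the counts of some chains was not tested. The 8 other genes of the MHC region of chromosome 6 that were looked at each had at least 61.8 CPM with monensin and 48.4 CPM untreated on average. Their levels differed between the groups by gene: TUBB was at 592 CPM with monensin and 1209 CPM untreated, RPS18 at 2984 CPM with monensin and 2113 CPM untreated, and RING1 at 97.9 CPM with monensin and 96.0 CPM untreated. These differences were not tested here.

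Within a library, the counts of members relative to each other were compared as 7 ratios, each a ratio of counts of 2 genes, with a two-sided exact permutation test whose smallest possible p is 0.1. The ratio of CD74 to HLA-DRB1 was 2.35, 2.41 and 2.44 in monensin libraries, against 1.92, 2.01 and 1.93 in untreated libraries. These values did not overlap (exact p = 0.1, adjusted over 7 ratios 0.175), which is as low as the design allows. The ratio of CD74 to HLA-DQB1 averaged 13.2 ± 0.468 with monensin and 9.99 ± 0.271 untreated, and HLA-DMA to CD74 averaged 0.0377 ± 0.00129 with monensin and 0.0280 ± 0.00167 untreated (SD, n = 3 each). CIITA to CD74 averaged 0.0179 ± 0.00252 with monensin and 0.0103 ± 0.00194 untreated. All 3 of these also separated the groups at an exact permutation p of 0.1. HLA-DRA to HLA-DRB1 overlapped between the groups, at 0.0411 ± 0.00776 with monensin and 0.0379 ± 0.00543 untreated (exact p = 0.7, n = 3 each). HLA-DQB1 to HLA-DRB1 overlapped as well, at 0.183 ± 0.00929 with monensin and 0.196 ± 0.00596 untreated (exact p = 0.2), as did HLA-DRB5 to HLA-DRB1 (exact p = 0.5). Some of these differences depended on removing trends with GC content and length, a comparison chosen after seeing the data. With the trends removed, the log2 fold change of CD74 exceeded that of HLA-DQB1 by 0.12, against 0.40 without the removal. HLA-DQB1 minus HLA-DRB1 turned to 0.22, against -0.10, and HLA-DRA minus HLA-DRB1 was 0.29, against 0.12. CD74 minus HLA-DRB1 was 0.34, against 0.30.

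**Figure D3:**
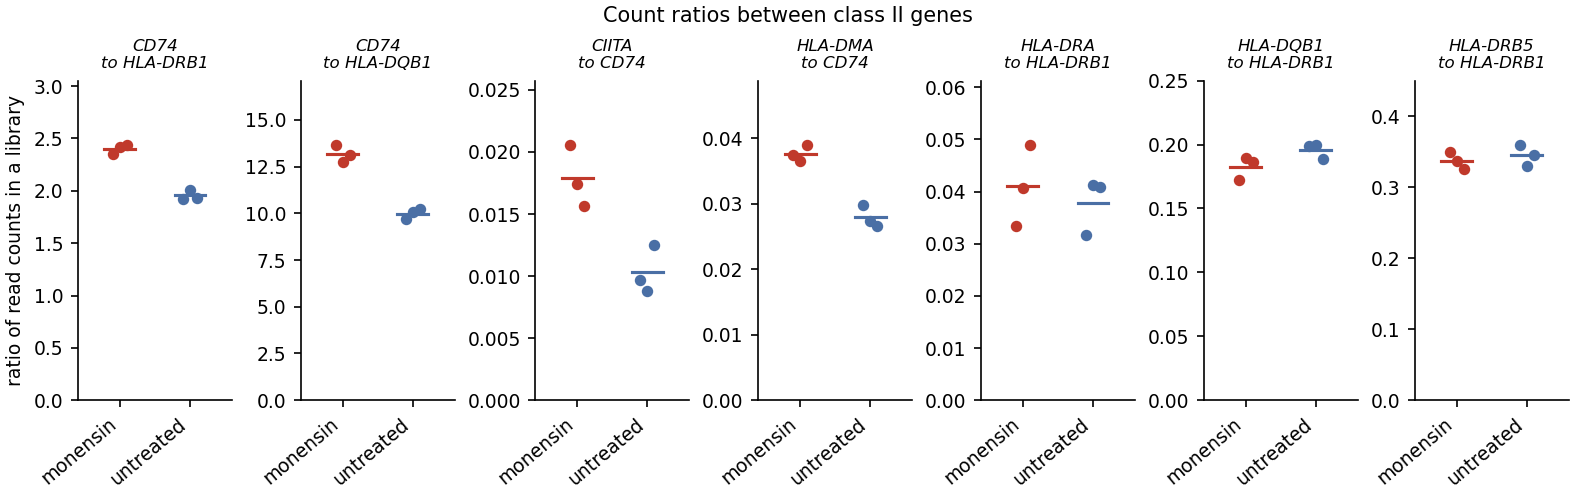
Ratios of read counts between class II genes in each library, with a bar for the mean of the 3 libraries of a group and each panel on its own linear axis from 0. The 4 panels with CD74 separate the monensin and untreated libraries, and the 3 panels within the DR and DQ genes do not.

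As shares of the reads of the 10 members, CD74 took 63.7% ± 0.178 in monensin libraries and 59.8% ± 0.463 in untreated libraries, and HLA-DRB1 took 26.5% ± 0.434 in monensin libraries and 30.6% ± 0.503 in untreated libraries (SD, n = 3 each). HLA-DMA took 2.40% ± 0.0857 with monensin and 1.67% ± 0.0953 untreated. Shares do not correct for length, and a larger share of CD74 lowers the others by construction.

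Of 11 further class II genes and pseudogenes, 3 were tested and all 3 were called raised, while 7 had under 10 reads in all libraries together. The count was 2 of 3 in 6 alternatives, in which the call on HLA-DRB6 was lost. HLA-DRB5, a second DR beta gene, had 41.6 ± 1.02 CPM with monensin and 30.8 ± 1.81 CPM untreated, a log2 fold change of 0.43 (standard error 0.06, adjusted p = 7.58e-06), or 0.12 (adjusted p = 0.0328) with trends with GC content and length removed. HLA-DOB, the beta chain of HLA-DO, which inhibits HLA-DM, had 39, 26 and 37 reads with monensin, against 19, 9 and 12 untreated. The lowest monensin library was above the highest untreated one, with a log2 fold change of 1.32 (standard error 0.28, adjusted p = 0.000705). HLA-DRB6, a pseudogene, had a log2 change of 0.48 (adjusted p = 0.0199), which did not hold throughout. It was not called with DESeq2 (adjusted p = 0.0878), with trends with GC content and length removed (0.19, adjusted p = 0.298), without monensin replicate 1 (adjusted p = 0.0543) or 3 (adjusted p = 0.0589), without untreated replicate 3 (adjusted p = 0.117), or at a threshold of 0.01. HLA-DOA, the partner of HLA-DOB, had 0 reads with monensin and 0, 1 and 1 untreated.

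**Figure D4:**
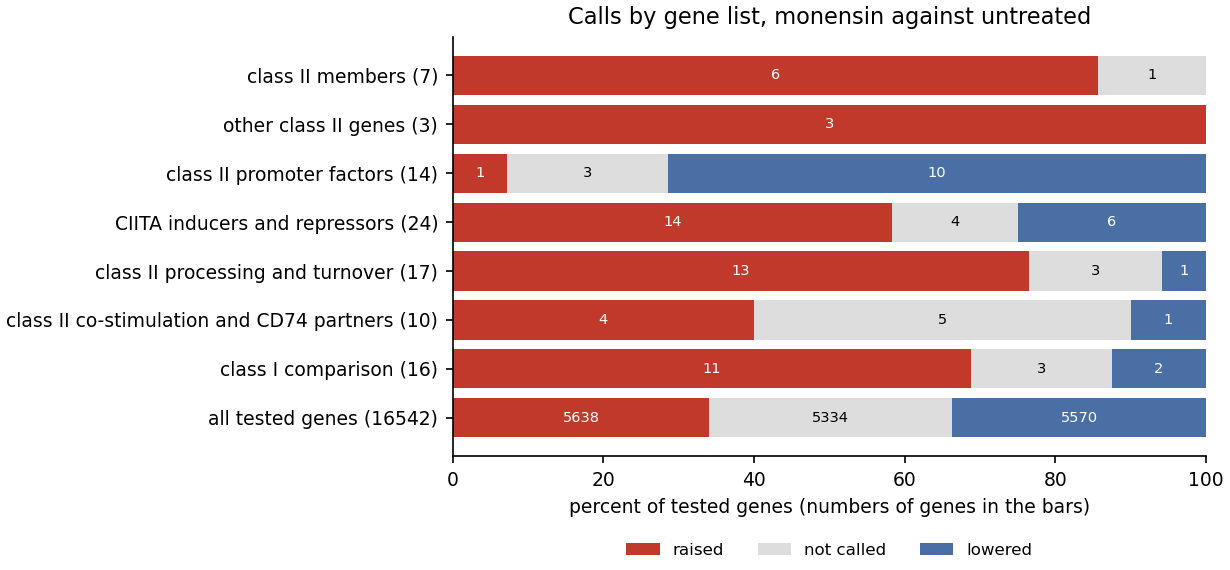
Percent of tested genes raised, not called or lowered with monensin in 6 lists of genes that act with class II, beside the members and all tested genes, with the number of genes in each bar segment. Promoter factors were mostly lowered, 10 of 14, and genes of processing and turnover mostly raised, 13 of 17. With total counts alone, which are not drawn, 7 of the 14 promoter factors were lowered.

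Most genes listed as class II promoter factors, co-factors of CIITA such as EP300 and SMARCA4 included, did not follow CIITA. Of 14 listed, 1 was raised, 10 were lowered and 3 were not called, beside 34.1% raised and 33.7% lowered among all tested genes. Their median log2 fold change was -0.25, against 0.02 for all tested genes. The raised gene was RFXANK, a subunit of RFX, at 114 ± 6.98 CPM with monensin and 80.1 ± 3.32 CPM untreated (log2 fold change 0.51, standard error 0.05, adjusted p = 4.19e-07), or 0.17 in log2 with trends with GC content and length removed. RFX5 was at 118 ± 1.90 CPM with monensin and 114 ± 2.49 CPM untreated (adjusted p = 0.316), and RFXAP was not called either (adjusted p = 0.542). The call on RFX5 depended on scaling: with total counts alone, its log2 fold change of 0.14 was called (adjusted p = 0.0118). NFYA, a subunit of NF-Y, was at 103 ± 1.30 CPM with monensin and 162 ± 4.73 CPM untreated, and fell by 0.65 in log2 (standard error 0.04, adjusted p = 2.28e-09). NFYB was lowered with a log2 fold change of -0.21 (standard error 0.06, adjusted p = 0.00413) and NFYC with one of -0.10 (standard error 0.04, adjusted p = 0.0219), and both calls were lost with total counts alone. The NFYC call was also lost without monensin replicate 1 (adjusted p = 0.0974) or untreated replicate 2 (adjusted p = 0.0557), and the NFYB call with trends with GC content and length removed (adjusted p = 0.164). The acetyltransferase EP300, with a log2 fold change of -0.51, and the chromatin remodeller SMARCA4, with -0.47, were lowered too, both co-factors of CIITA. The count of lowered genes among the 14 depended on the setting. It was 7 with total counts alone, where 2 were raised, and 8 at an adjusted p under 0.01.

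Genes that induce or repress CIITA moved both ways: of 24 tested, 14 were raised, 6 lowered and 4 not called, with a median log2 fold change of 0.32. Over all tested genes the shares were 34.1% raised and 33.7% lowered. IRF1, which activates CIITA after interferon gamma, was at 40.5 ± 3.84 CPM with monensin and 20.3 ± 1.13 CPM untreated, a log2 fold change of 1.00 (standard error 0.07, adjusted p = 7.89e-09). IFNGR2, a chain of the interferon gamma receptor, rose by 0.75 (adjusted p = 1.51e-09), or by 0.50 with trends with GC content and length removed. IRF8, a myeloid lineage factor, fell by 0.33. EZH2, the histone methyltransferase that silences many promoters, was at 78.2 ± 3.12 CPM with monensin and 136 ± 1.59 CPM untreated and fell by 0.80 (standard error 0.05, adjusted p = 4.20e-10). TFEB and TFE3, which drive lysosomal genes, rose by 0.66 and 0.71, or by 0.42 and 0.43 in the same setting. The largest change in the list was ATF5, a stress-induced factor of the ATF4 family, at 203 ± 4.93 CPM with monensin and 34.4 ± 1.93 CPM untreated, a log2 fold change of 2.56 (standard error 0.05, adjusted p = 2.76e-15). SPI1, the myeloid factor PU.1, had a log2 fold change of 0.34 (standard error 0.05, adjusted p = 8.34e-06), and of -0.05 (adjusted p = 0.235) in that setting.

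Genes listed for class II processing and turnover, not all of them proteases, were mostly raised, 13 of 17 tested, with 1 lowered and 3 not called. Over all tested genes the shares were 34.1% raised and 33.7% lowered. The median log2 fold change of these genes of processing and turnover was 0.69. CTSS, the cathepsin that makes the last cut of the invariant chain in many antigen-presenting cells, was at 250 ± 14.2 CPM with monensin and 132 ± 0.340 CPM untreated, a log2 fold change of 0.92 (standard error 0.05, adjusted p = 1.01e-10). The lysosomal proteases CTSB, CTSH and CTSD rose by 1.15, 1.45 and 1.90. LGMN, the asparaginyl endopeptidase, had 0.855 ± 0.167 CPM with monensin and 0.672 ± 0.0588 CPM untreated (log2 fold change 0.34, standard error 0.26, adjusted p = 0.262) and was not called. IFI30, a thiol reductase of the class II compartment, had 0, 3 and 4 reads with monensin and 0, 2 and 0 untreated and was not tested. The lowered gene was CTSC, a dipeptidyl peptidase of lysosomes, and the count of lowered genes was 0 without untreated replicate 2 and 2 without monensin replicate 2.

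**Figure D5:**
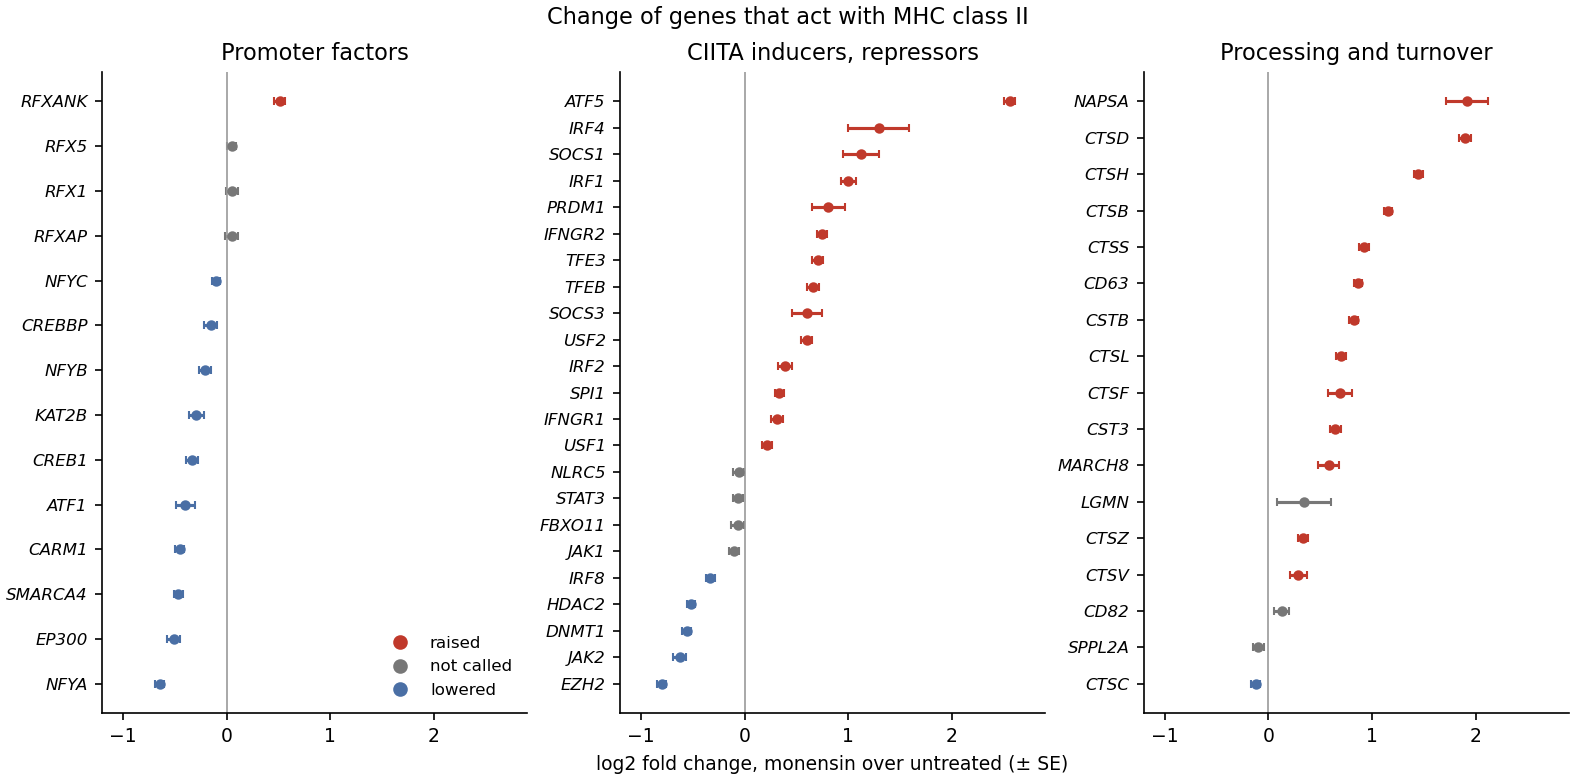
Log2 fold change of monensin over untreated, with bars of ± SE, for the tested promoter factors, 23 of the 24 tested inducers and repressors of CIITA, and the tested genes of processing and turnover. NFYA at -0.65 and EZH2 at -0.80 lie left of 0, and IRF1 at 1.00 and CTSD at 1.90 lie right of it.

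Genes of co-stimulation and CD74 partners gave 4 raised, 1 lowered and 5 not called of 10 tested, with a median log2 fold change of 0.15. Over all tested genes the shares were 34.1% raised and 33.7% lowered, so the raised share of this list was near that of all genes. ICAM1, an adhesion molecule that helps T cells bind, was at 24.4 ± 0.798 CPM with monensin and 3.96 ± 0.645 CPM untreated, a log2 fold change of 2.62 (standard error 0.10, adjusted p = 2.78e-12). CD40, a co-stimulatory receptor, rose by 1.06, CXCR4, which can act as a co-receptor with CD74, rose by 0.24, and MIF, a ligand of CD74, fell by 0.46, or by 0.88 with trends with GC content and length removed. Without untreated replicate 1 the lowered genes were 2. For class I genes and their loading machinery, 11 of 16 tested were raised, 2 lowered and 3 not called, with a median log2 fold change of 0.34. HLA-B, HLA-C and HLA-E, which present peptides to CD8 T cells or natural killer cells, had log2 fold changes of 0.76, 0.64 and 0.66, and of 0.46, 0.30 and 0.42 with those trends removed. The changes of CIITA and HLA-DMA, at 1.54 and 1.19, were thus larger in value than those of these 3 class I genes, and those of HLA-DRB1 and HLA-DQB1, at 0.47 and 0.36, were smaller, except that HLA-DQB1, at 0.36, passed HLA-C, at 0.30, with those trends removed. The differences between these genes' changes were not tested.

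The genes whose levels most resembled CD74 over the 6 libraries, by Pearson correlation of log2(CPM + 0.1) among 11559 genes, were CYSTM1, LILRA2, MYCBPAP, SCAMP5 and SH3BP5L, with r between 0.999 and 1.00. This is a description over 6 libraries that fall into 2 groups, and 2298 of these genes (19.9%) reached an r of 0.95 or more. LILRA2, a leukocyte receptor of the immunoglobulin family, was at 135 CPM with monensin and 78.2 CPM untreated.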

How the data were processed

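RNA-seq counts of 6 THP-1 libraries were analysed. The authors deposited raw counts of reads per gene, with no normalization, and a list of regulated genes with log2 fold changes made by the authors. The submitters' processing notes list bcl2fastq and Trimmomatic 038, HISAT2 2.1.0 and HTSeq 0.11.1, with DESeq2 1.22.2 also named, on hg38 (GRCh38). The order of use, the annotation release and the strand setting are not given in the sources used here. Per the labels' protocols, the kit was directional and reads were single, of 75 bases. Tally lines for unassigned reads, 21.6% ± 0.398 of the total with monensin and 19.3% ± 0.388 untreated (SD, n = 3 each), did not enter library sizes or tests.

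The test was edgeR 4.0.16 under R 4.3.3 (quasi-likelihood, TMM, its filter on low counts, treatment as the only term), tested on simulated data. Positions and lengths came from GENCODE 29, which held 99.8% of gene identifiers. All 10 members were named. From each list of related genes the 4 tested genes of largest absolute log2 fold change were named, if their average log2 CPM reached 2, plus a fixed set of regulators. HLA-DRB6, the only other tested class II gene, BRD2, DEXI, RING1, TUBB, RPS18, CTSC and the monocyte markers AZU1, ELANE and CTSG were named after their values were seen. So was the T cell marker IL7R. A few listed genes are not reported here. Members and lists were chosen with earlier results of these data known. Replicates of a group differed by chi-square per degree of freedom of 1.84 to 4.68, and none were identical. Alternatives were RLE size factors, total counts, no or a stricter filter, DESeq2 1.42.0, a block for replicate number, leaving out single libraries, an adjusted p under 0.01, a fit without mitochondrial genes, and removal of GC and length trends. Intervals cover counting error only, as no molecular identifiers mark independent molecules.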

Additional observations from a re-analysis of the deposited data

How the results depend on the processing

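Across 15 alternatives, 6 or 7 members were raised and 0 lowered. The count was 7 without a filter, with DESeq2, and without monensin replicate 1 or any 1 untreated library, settings in which HLA-DMB was tested. HLA-DMB reached the filter level in 2 monensin libraries and 0 untreated libraries. In the fits that left out a library it thus entered only through the group where it was high. Its call in those fits is therefore no separate support. The 6 called members stayed called in each, with log2 fold changes of 1.43 to 1.69 for CIITA, 0.47 to 0.85 for CD74, 0.99 to 1.28 for HLA-DMA, 0.40 to 0.74 for HLA-DRA, 0.14 to 0.55 for HLA-DRB1 and 0.31 to 0.45 for HLA-DQB1. HLA-DPA1, called in none, was at -0.21 without untreated replicate 1 and 0.49 at its highest, without untreated replicate 2, and was not in the fit with the stricter filter. With GC and length trends removed, RFX5 was at -0.055 and SPI1 at -0.047. The HLA-DRB6 call was lost in 6 alternatives, the lowest value being 0.19 with GC and length trends removed. Of 180 list counts compared, 171 were within 1.5 times. With total counts, promoter factors raised were 2 and lowered 7, processing genes lowered 0 and class I genes lowered 1. Processing genes lowered were 0 at an adjusted p under 0.01, and 0 to 2 with a library left out. Co-stimulation genes lowered were 2 with RLE size factors, 3 with GC and length trends removed, and 1 to 2 with a library left out. With the longest transcript, the per-length ratio of CD74 to HLA-DRB1 was 1.71 with monensin and 1.39 untreated, and that of CIITA to CD74 was 0.00192 with monensin and 0.00111 untreated. Without CD74, HLA-DRB1 held 73.1% of the members' reads with monensin and 76.0% untreated. The causes of these shifts were not tested.

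Same-numbered libraries did not deviate together (correlations of -0.12, 0.14 and 0.04 over genes), so the numbers were not taken to pair them, and monensin replicate 1 correlated best with untreated replicate 2. With the replicate number as a block, 6 members were raised and 0 lowered, and the call on NFYC was lost (adjusted p = 0.0757). The NFYC call was also lost without monensin replicate 1 (0.0974) and without untreated replicate 2 (0.0557). HLA-DMB, HLA-DPA1, HLA-DPB1 and HLA-DQA1 had at most 19 reads in a library, which limits the precision of their values.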
